A study of Mus musculus with 6 samples.

Results

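Medium spiny neurons are the principal neurons of the striatum, and 9 genes that mark them were followed in 6 RNA-seq libraries of mouse visual cortex. The members were chosen by symbol, as the rows of the deposited table of FPKM values (fragments scaled by exon length and by mapped reads) named *Drd1*, *Tac1*, *Drd2*, *Adora2a*, *Penk*, *Ppp1r1b*, *Rgs9*, *Pde10a* and *Scn4b*. All 9 were found among 24453 gene rows. They were proposed with the difference between genotypes already known, so their values in that comparison are a description and carry no test.

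The libraries came from male C57BL/6J mice at postnatal day 14, of which 3 lacked *Chrdl1* (KO) and 3 were wild type (WT). *Chrdl1* encodes a secreted antagonist of bone morphogenetic proteins, and the series asks which cortical transcripts differ without it. All animals were perfused with fixative before the cortex was taken. The labels do not say whether a library is 1 animal or how the knockout was made, and the spread given here is the spread between libraries. Each library title holds a number shared by 1 KO and 1 WT library, and the 2 libraries with the same number are given the same replicate number here and called a pair.

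Medium spiny neurons are GABAergic and fall into a pair of classes. Those of the direct pathway carry the D1 dopamine receptor, which raises cyclic AMP, and make substance P. Those of the indirect pathway carry the D2 dopamine receptor, which lowers cyclic AMP, together with the adenosine receptor encoded by *Adora2a*, and make enkephalin. Both classes use DARPP-32, a phosphatase inhibitor switched on by protein kinase A, and both are scarce or absent in neocortex. Some members are also known in cortical cells, such as *Tac1* and *Penk* in interneurons and *Drd1* and *Ppp1r1b* in deep-layer neurons.

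The start regions of the dopamine receptor genes that separate both classes, and of *Rgs9*, a gene of both, are shown because they held no annotated exon. Of the 9 members, 6 matched an entry of the RefSeq promoter table (GRCm38.p6, the build called mm10 in the files), and *Ppp1r1b*, *Penk* and *Adora2a* did not. In 3 of those 6 the 250 bases before the start held no annotated exon, and these are printed 5′ to 3′ on the gene's strand. They are chr13:54054781-54055030 (minus strand) for *Drd1*, chr9:49340153-49340402 (plus strand) for *Drd2* and chr11:109298182-109298431 (minus strand) for *Rgs9*. Capitals mark a GC box (GGGCGG or its reverse complement) or a TATA box core (TATAAA).
Drd1: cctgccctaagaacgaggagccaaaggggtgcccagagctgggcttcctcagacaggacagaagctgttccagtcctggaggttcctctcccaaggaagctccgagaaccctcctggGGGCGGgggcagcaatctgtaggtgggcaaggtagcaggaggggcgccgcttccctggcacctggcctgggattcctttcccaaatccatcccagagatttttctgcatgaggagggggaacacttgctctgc
Drd2: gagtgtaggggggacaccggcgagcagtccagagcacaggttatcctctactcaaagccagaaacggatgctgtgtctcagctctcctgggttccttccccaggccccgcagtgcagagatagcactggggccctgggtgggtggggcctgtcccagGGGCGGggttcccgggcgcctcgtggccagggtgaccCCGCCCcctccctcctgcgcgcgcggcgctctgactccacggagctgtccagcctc
Rgs9: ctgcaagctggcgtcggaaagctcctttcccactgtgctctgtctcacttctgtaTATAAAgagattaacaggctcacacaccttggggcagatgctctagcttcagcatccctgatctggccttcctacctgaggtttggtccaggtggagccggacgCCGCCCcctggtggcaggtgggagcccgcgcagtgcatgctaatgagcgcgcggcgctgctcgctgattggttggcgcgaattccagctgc
A GC box was found once before *Drd1*, at 2 places before *Drd2* and once before *Rgs9*, and in 32.7% of 32851 promoter windows of the same length on either strand. The TATA box core was found in the *Rgs9* window alone of these 3, 195 bases before the start, against 12.4% of all windows. The half-site of the cyclic AMP response element (CGTCA, either strand) was in none of the 3 and in 17.8% of all windows. The *Tac1* window, not printed, held it at 2 places, 197 and 43 bases before the start. The motifs do not overlap each other. The RefSeq start used for *Drd2* lies 259 bases from the start of the authors' gene model, and those of *Drd1* and *Rgs9* coincide with it.

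The libraries were first checked. *Chrdl1* itself measured 0.172, 0.190 and 0.120 FPKM in KO replicates 1, 2 and 3, against 3.65, 3.57 and 3.09 FPKM in WT. All 10 markers of cortical excitatory neurons averaged at least 1 FPKM, from *Rspo1* at 1.68 to 2.06 FPKM in KO and 1.74 to 1.80 FPKM in WT to the vesicular glutamate transporter gene *Slc17a7* at 627 ± 62.0 FPKM in KO and 610.0 ± 56.1 FPKM in WT (SD, n = 3). Depth recovered from the values was 22.7 to 31.9 megareads in KO and 27.5 to 38.2 megareads in WT. For each of the genes followed here, KO replicates 1 and 3 were the lowest 2 of the 6 libraries. KO replicate 2 was not among them, so every mean over the 3 KO libraries joins levels of a different kind.

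**Figure D1:**
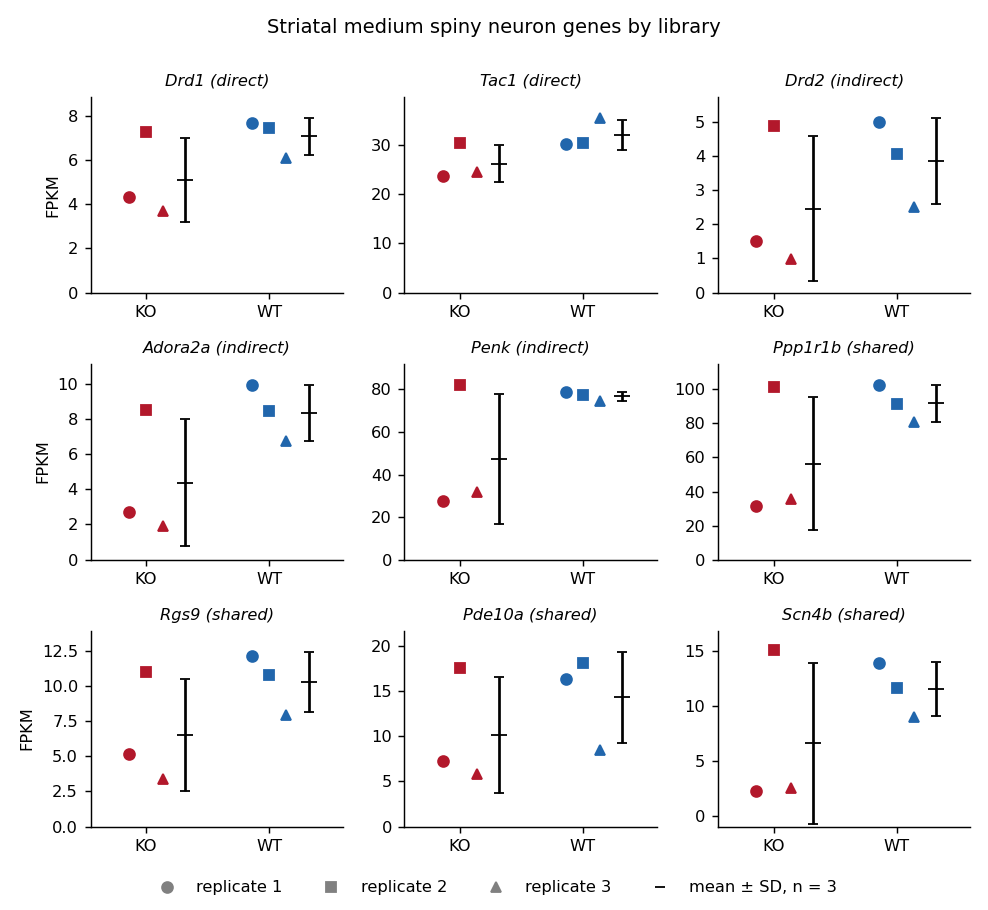
FPKM of the 9 genes (vertical axes, each on its own scale) in the 3 KO and 3 WT libraries, with the replicate number given by the symbol and mean ± SD beside the points. KO replicates 1 and 3 are the lowest pair of libraries for every gene, and KO replicate 2 lies within or above the WT range for all genes (Scn4b 15.05 FPKM, against at most 13.9 FPKM in WT).

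On mm10 the direct pathway genes lie at chr13:54051184-54054780 (*Drd1*, minus strand) and chr6:7555071-7562973 (*Tac1*, plus strand), and the values count reads over all exons of a gene. Among them, *Drd1*, the D1 dopamine receptor gene, measured 4.35, 7.29 and 3.70 FPKM in KO replicates 1, 2 and 3, against 7.68, 7.44 and 6.10 FPKM in WT. KO replicates 1 and 3 were below every WT library, and KO replicate 2 was inside the WT range. *Tac1*, the precursor of substance P and neurokinin A, measured 23.6, 30.4 and 24.5 FPKM in KO replicates 1, 2 and 3, against 30.2, 30.4 and 35.5 FPKM in WT. The same 2 KO libraries were below all WT libraries, by a smaller share. As a share of the WT mean, the KO mean was 72.3% for *Drd1* and 81.7% for *Tac1*. The log2 fold changes (KO minus WT, on log2(FPKM + 1)) were -0.44 (SE 0.20) and -0.29 (SE 0.11). Standard errors (SE) here and below are from the fit without the pair as a block, so they include differences between pairs.

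The genes of the indirect pathway, at chr9:49340662-49407214 (*Drd2*, plus strand), chr10:75316877-75334792 (*Adora2a*, plus strand) and chr4:4133536-4138445 (*Penk*, minus strand), had KO means of 52.2% to 63.6% of the WT means. *Drd2*, the D2 dopamine receptor gene, measured 1.502, 4.88 and 0.977 FPKM in KO replicates 1, 2 and 3, against 5.0, 4.07 and 2.50 FPKM in WT. It was the lowest member, resting on 61, 170 and 48 reads in KO and 294, 172 and 131 reads in WT. *Adora2a*, the gene of the adenosine receptor of this pathway, measured 2.68, 8.51 and 1.90 FPKM in KO replicates 1, 2 and 3, against 9.91, 8.46 and 6.73 FPKM in WT. *Penk*, which encodes proenkephalin, measured 27.4, 82.3 and 31.9 FPKM in KO, against 78.7, 77.2 and 74.4 FPKM in WT. For each of these genes KO replicates 1 and 3 lay below the whole WT range. The coefficient of variation of *Penk* was 64.5% among KO libraries and 2.87% among WT libraries, with KO replicate 2 above all WT libraries. The log2 fold changes were -0.62 (SE 0.39) for *Drd2*, -0.99 (SE 0.40) for *Adora2a* and -0.86 (SE 0.35) for *Penk*.

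Of the genes that both classes share, *Ppp1r1b*, which encodes DARPP-32, was the most abundant member. It measured 31.8, 101 and 35.9 FPKM in KO replicates 1, 2 and 3, against 102.9, 91.7 and 81.1 FPKM in WT. Its 3 KO libraries held 1120, 3068 and 1531 reads, against 5250, 3365 and 3687 reads in WT, and its mean was 56.3 ± 39.1 FPKM in KO and 91.9 ± 10.9 FPKM in WT (SD, n = 3). *Rgs9*, whose product speeds the switching off of G proteins behind the D2 receptor, measured 5.20, 11.1 and 3.40 FPKM in KO replicates 1, 2 and 3, against 12.2, 10.8 and 7.93 FPKM in WT. In both genes KO replicates 1 and 3 were the low libraries. *Pde10a*, a phosphodiesterase that breaks down cyclic AMP and cyclic GMP, measured 7.22, 17.6 and 5.78 FPKM in KO, against 16.3, 18.1 and 8.52 FPKM in WT. Here WT replicate 3 was also low, closer to KO replicate 1 than to the other WT libraries. In FPKM this held for *Drd2* too, and narrowly for *Rgs9*. *Scn4b*, a beta subunit of voltage-gated sodium channels, had the widest spread, with 2.20, 15.05 and 2.47 FPKM in KO and 13.9, 11.7 and 9.002 FPKM in WT. Its KO replicate 2 was the highest of the 6 libraries. The 4 genes lie at chr11:98349996-98357796 (*Ppp1r1b*, plus strand), chr11:109225355-109298181 (*Rgs9*, minus strand), chr17:8801745-8986648 (*Pde10a*, plus strand) and chr9:45139042-45154061 (*Scn4b*, plus strand). Log2 fold changes were -0.89 (SE 0.39) for *Ppp1r1b*, -0.69 (SE 0.34) for *Rgs9*, -0.53 (SE 0.40) for *Pde10a* and -1.14 (SE 0.56) for *Scn4b*.

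Levels per exon length ranged widely among the members. In WT the order by mean FPKM was *Ppp1r1b*, *Penk*, *Tac1*, *Pde10a*, *Scn4b*, *Rgs9*, *Adora2a*, *Drd1* and *Drd2*. The libraries of the first 4 did not overlap between neighbours, and *Drd2*, at 3.86 ± 1.26 FPKM, stood below *Drd1*, at 7.07 ± 0.851 FPKM (SD, n = 3). From *Pde10a* down to *Drd1* each gene overlapped its neighbour. In KO the same genes led, but the spread was such that only *Tac1* (26.2 ± 3.71 FPKM) and *Pde10a* (10.2 ± 6.42 FPKM) did not overlap as neighbours. In FPKM the coefficient of variation was 14.2% to 112% among KO libraries and 2.87% to 35.5% among WT libraries. The wider KO spread restates that KO replicate 2 stood apart from KO replicates 1 and 3 and is no further result.

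Over all 9 members the median log2 fold change was -0.69, beside 0.01 over the 12863 genes tested. The limma fit across all genes called 1 gene lower at an adjusted p under 0.05 (0.00777% of those tested), which was *Chrdl1*, and 0 higher. The number at an unadjusted p under 0.05 was 81, or 503 with the pair as a block and 90 with voom on recovered reads. Each of these counts is below the share of 0.05 that would be met with no difference at all. None of the 9 members was called, with or without the block. The KO and WT values overlapped for 9 of 9 members, so that 0 were lower in KO without overlap, beside 1.19% of the genes tested, and for these genes the overlap came from KO replicate 2. Without that library limma called 4 of the 12863 genes, of which 3 were members (*Ppp1r1b*, *Scn4b* and *Penk*), and the median over the members was -1.10. Without KO replicate 3 the median was -0.37, with 0 members called. Leaving out the KO library in which the genes were high favours such calls, and nothing is read from them. In bulk tissue, fewer cells of a type in the tissue taken, for whatever reason, and less RNA per cell cannot be told apart.

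Within pairs the difference was present in 2 of 3. The KO library held 15.8% to 78.2% of the paired WT FPKM in pair 1 and 27.4% to 68.95% in pair 3, with medians over the members of 34.8% and 42.9%. In pair 2 it held 97.2% to 129%, with a median of 102%. As log2 differences of FPKM + 1 the medians were -1.26, 0.03 and -1.02 for pairs 1, 2 and 3. A step of 0.5 or more below WT was passed by 8 of 9 members in pair 1, where 0.645% of all genes tested did so, by 0 of 9 in pair 2 (0.163%) and by 8 of 9 in pair 3 (0.575%). Both steps at once were passed by 7 of 9 members and by 0.225% of genes. The exceptions were *Tac1*, at -0.34 in pair 1, and *Pde10a*, at -0.49 in pair 3. A lower value in KO in 3 of 3 pairs was found for 2 of 9 members, *Pde10a* and *Drd1*, and for 9.59% of genes. Since these pairs belong to the contrast on which the genes were proposed, the shares describe them and test nothing.

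**Figure D2:**
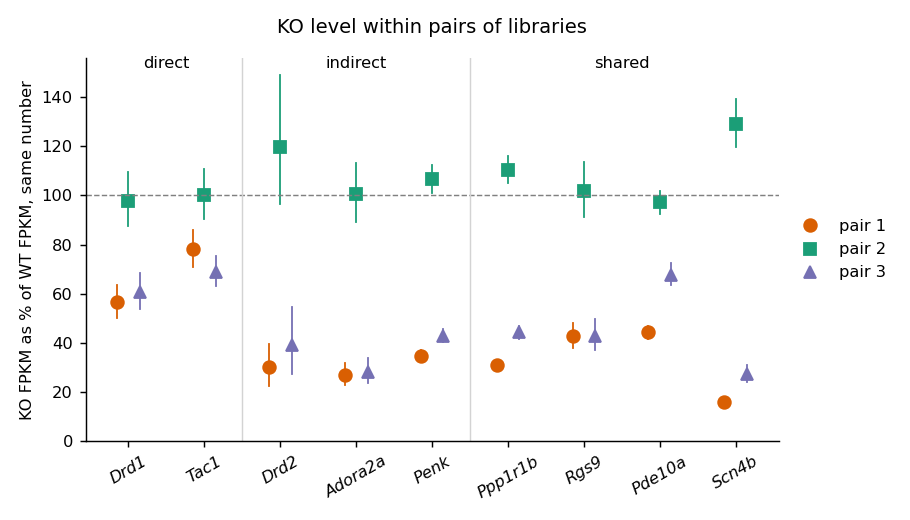
KO FPKM as a percentage of WT FPKM (vertical axis) for each gene in pairs 1, 2 and 3, with vertical lines for the 95% interval of the read counts alone. Pairs 1 and 3 lie below 100% for all 9 genes, from 15.8% (Scn4b, pair 1) to 78.2% (Tac1, pair 1), and pair 2 lies between 97.2% and 129%.

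Counting error was small beside these differences. For *Drd2*, with the fewest reads, KO stood at 30.04% of WT in pair 1 (95% exact interval 22.4% to 39.7%), 120% in pair 2 (96.4% to 149%) and 39.1% in pair 3 (27.4% to 54.7%). For *Ppp1r1b* the shares were 30.9% (28.9% to 33.0%), 111% (105% to 116%) and 44.3% (41.7% to 47.0%) in pairs 1, 2 and 3. For *Scn4b* they were 15.8% (13.8% to 18.0%), 129% (120% to 139%) and 27.4% (24.2% to 30.9%), the lowest value in pairs 1 and 3 and the highest in pair 2. Its interval overlapped that of *Adora2a* in pair 3 (23.6% to 33.8%) and that of *Drd2* in pair 2, so its rank in those pairs is not resolved. These intervals cover the counting of reads and not differences between animals. Pairs 1 and 3 ordered the genes similarly but not equally, and *Pde10a* stood at 44.2% (41.7% to 46.9%) in pair 1 and 67.8% (63.4% to 72.5%) in pair 3.

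**Figure D3:**
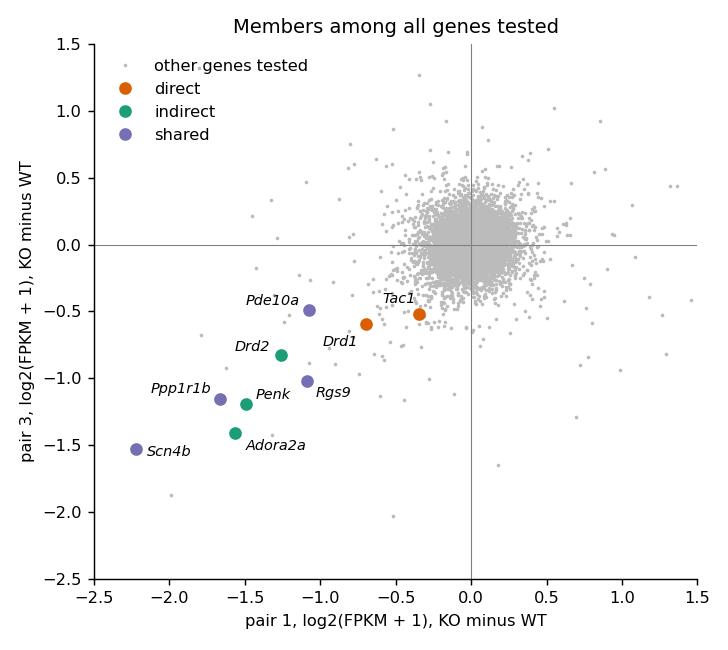
Difference between KO and WT on log2(FPKM + 1) in pair 1 (horizontal axis) and pair 3 (vertical axis) for the 12863 genes tested, with the 9 members coloured by pathway and 3 other genes outside the axes. The members lie in the lower left, with Scn4b farthest out and Tac1 nearest to the cloud of other genes.

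The balance between the 2 direct and the 3 indirect pathway members differed in the same libraries. The ratio of *Drd1* to *Drd2* in FPKM was 2.89, 1.49 and 3.79 in KO replicates 1, 2 and 3, against 1.54, 1.83 and 2.44 in WT. The ratio of *Drd1* to *Adora2a* was 1.62, 0.856 and 1.94 in KO, against 0.775, 0.880 and 0.907 in WT. The ratio of *Tac1* to *Penk* was 0.861, 0.369 and 0.766 in KO, against 0.383, 0.393 and 0.477 in WT. In each ratio KO replicates 1 and 3 lay above all WT libraries and KO replicate 2 below or inside their range. On log2(FPKM + 1) the mean of the direct genes minus that of the indirect genes was 0.84, -0.05 and 0.93 in KO replicates 1, 2 and 3, against -0.08, 0.07 and 0.34 in WT. The KO mean exceeded the WT mean by 0.46, less than the SD of 0.54 among the KO libraries. This difference was 0.78 without KO replicate 2, 0.28 without KO replicate 3 and 0.24 without both libraries of pair 1. The mean of the direct genes alone was 3.66 ± 0.31 in KO and 4.02 ± 0.02 in WT, and that of the indirect genes 3.09 ± 0.85 in KO and 3.91 ± 0.23 in WT (SD, n = 3). The further pathway genes described below did not keep this order in both pairs. Their median differences in pairs 1 and 3 were -0.10 and -0.31 for 5 direct genes and -0.17 and -0.10 for 4 indirect genes. The balance is therefore that of the members named, and a shift between the pathways was not tested.

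**Figure D4:**
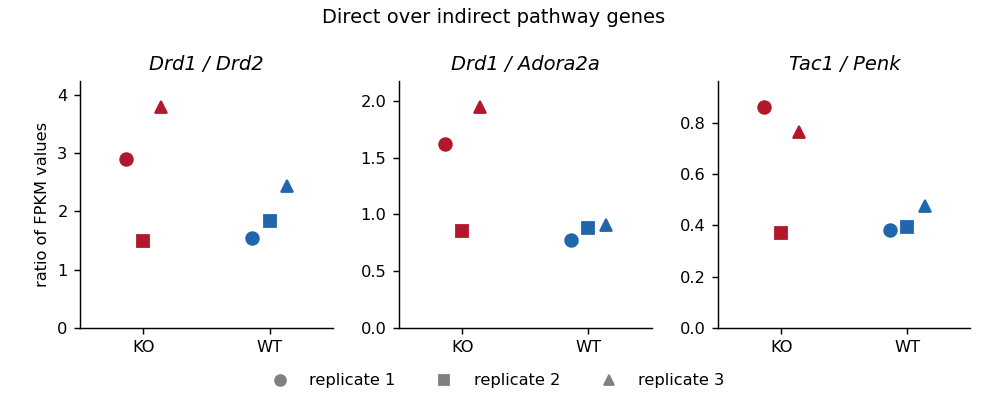
Ratios of FPKM values (vertical axes, from 0) of a direct to an indirect pathway gene in KO and WT libraries, with the replicate given by the symbol. KO replicates 1 and 3 have the highest ratios in each panel, up to 3.79 for Drd1 over Drd2, and KO replicate 2 the lowest or, for Drd1 over Adora2a, a value between those of WT replicates 1 and 2.

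Other genes of medium spiny neurons were taken from lists written from textbook knowledge with earlier results of these data known. Of 25 genes shared by both classes 23 were tested, and 0 were called by limma, 3 had an unadjusted p under 0.05 and 12 with the block. Over all 12863 genes tested, 81 had such a p and 503 with the block. The median log2 fold change of the 23 was -0.23, with 22 lower and 1 higher. Over all genes tested it was 0.01, with 5942 lower and 6921 higher. Since the list was written with these data known, its counts describe it and test nothing. Within pairs, 20 of 23 were lower in KO in both pair 1 and pair 3, where 27.0% of all genes tested were, and 13 of 23 in pair 2, where 44.5% were. *Rxrg*, a retinoid X receptor gene, had KO at 34.1%, 101% and 62.8% of WT in pairs 1, 2 and 3. *Rasd2*, which encodes the small G protein Rhes, had KO at 55.2%, 109% and 62.1%, and *Syndig1l* at 53.0%, 96.0% and 55.3%. *Actn2*, *Dclk3*, *Pde1b* (a calcium-dependent phosphodiesterase) and *Foxp2* (a forkhead factor) had log2 fold changes of -0.27, -0.19, -0.27 and -0.22. *Arpp21*, also on this list and abundant in cortex, stood at 92.5 ± 5.94 FPKM in KO and 91.9 ± 8.88 FPKM in WT.

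The lists for single pathways were mixed. Of 7 further direct pathway genes 5 were tested, 0 were called and 0 had an unadjusted p under 0.05 with or without the block. *Pdyn*, the prodynorphin gene, measured 15.6 ± 1.06 FPKM in KO and 17.3 ± 1.91 FPKM in WT (SD, n = 3), *Chrm4*, a muscarinic receptor gene, 15.9 ± 0.404 and 16.6 ± 3.36 FPKM, and *Eya1* had a log2 fold change of 0.07. *Slc35d3*, near the filter at 1 FPKM, measured 0.736, 1.26 and 0.394 FPKM in KO replicates 1, 2 and 3, against 1.61, 1.05 and 1.05 FPKM in WT. *Isl1*, a homeobox factor of direct pathway neurons that failed the filter, held 8, 36 and 2 reads in KO replicates 1, 2 and 3, against 55, 37 and 60 reads in WT. *Slc35d3* and *Isl1* were low in KO replicates 1 and 3, while KO *Pdyn* stood at 93.1%, 101% and 78.6% of WT in pairs 1, 2 and 3 and *Chrm4* at 103%, 113% and 79.5%. Of 5 further indirect pathway genes 4 were tested, 0 were called and 1 had an unadjusted p under 0.05 with or without the block. Over all 12863 genes tested, 81 had such a p without the block and 503 with it. *Sp9*, a zinc finger factor, measured 1.46 ± 0.206 FPKM in KO and 1.91 ± 0.107 FPKM in WT, and *Gpr52*, *Plxdc1* and *Gpr6* had log2 fold changes of -0.13, 0.06 and -0.04.

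Relatives of the members in receptor and second messenger signalling were a further list. Of 29 genes 24 were tested, 0 were called by limma, 0 had an unadjusted p under 0.05 and 4 with the block, and the median log2 fold change was -0.02. With the block, 503 of all 12863 genes tested had such a p. *Oprk1*, the kappa opioid receptor gene, and *Pde7b*, a phosphodiesterase gene, had log2 fold changes of -0.32 and -0.31, and *Rgs2* and *Rgs4*, regulators of G protein signalling, -0.14 and -0.11. The adenosine A1 receptor gene *Adora1* measured 64.4 ± 3.24 FPKM in KO and 61.3 ± 0.962 FPKM in WT.

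Genes listed as markers of striatal cholinergic interneurons were low in KO replicates 1 and 3 as well. The cells that gave their reads were not identified. None of the 5 genes reached the filter at 1 FPKM, and their summed level was 0.800, 2.25 and 0.777 FPKM in KO replicates 1, 2 and 3, against 2.45, 2.42 and 2.25 FPKM in WT. *Chat*, the acetylcholine-synthesising enzyme gene, held 5, 35 and 11 reads in KO, against 53, 51 and 41 reads in WT. *Lhx8*, a LIM homeobox factor gene, held 1, 14 and 0 reads in KO, against 32, 11 and 15 reads in WT, and the count of 0 in KO replicate 3 allows up to 0.0478 FPKM. KO replicates 1 and 3 were below WT for each of these 5 genes.

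Other lists moved with the libraries too. All 12 markers of mature oligodendrocytes were tested, 0 were called and 0 had an unadjusted p under 0.05 with or without the block. Their median difference was -0.25, 0.20 and -0.51 in pairs 1, 2 and 3, lower in the same pairs as the members, and their summed level ranged from 1472 to 2863 FPKM in KO and from 1861 to 3126 FPKM in WT. *Mbp*, the myelin basic protein gene, measured 665, 1268 and 985 FPKM in KO replicates 1, 2 and 3. Among WT libraries the order differed from that of the members: *Mbp* was lowest in WT replicate 1 (890.4 FPKM), followed by WT replicate 2 (1136 FPKM) and WT replicate 3 (1387 FPKM), while *Ppp1r1b* was highest in WT replicate 1. The 8 meningeal genes had medians of 0.43, 0.02 and 0.30 in pairs 1, 2 and 3, with 0 called, 2 at an unadjusted p under 0.05 and 5 with the block. Over all 12863 genes tested, 81 had such a p and 503 with the block. The summed level of the meningeal genes was 88.0 to 111 FPKM in KO and 79.8 to 86.9 FPKM in WT. *Fmod* and *Col1a2*, extracellular matrix genes, had log2 fold changes of 0.36 and 0.23. *Dcn* and *Igf2* were at 0.25 and 0.27. The part of these cell types in the striatal result was not tested.

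The other lists covered neighbouring regions and cortical neurons. The median over 6 genes of claustrum and subplate was 0.05, 0.03 and -0.16 in pairs 1, 2 and 3 (*Gnb4* -0.10, *Ctgf* -0.04, *Cplx3* -0.03 and *Ntng2* 0.03 as log2 fold changes). For 8 tested genes of the subventricular zone and ependyma it was -0.03, -0.02 and 0.07 (*Rarres2* 0.09, *Dlx2* -0.08, *Foxj1* 0.04, *Ccdc153* 0.07). For 10 cortical excitatory genes it was 0.09, -0.02 and 0.01 (*Fezf2* 0.08, *Rspo1* 0.06, *Neurod6* 0.08, *Tbr1* -0.04). For 10 cortical interneuron genes it was -0.04, 0.03 and -0.06 (*Gad2* -0.12, *Npy* -0.12, *Vip* 0.13, *Gad1* -0.08), and *Pvalb* ranged from 12.1 to 29.2 FPKM in KO and from 13.8 to 34.3 FPKM in WT. The 6 thalamic genes had medians of 0.04, 0.12 and 0.07 (*Slc17a6* 0.10, *Ramp3* 0.07, *Ntng1* 0.04, *Prkcd* 0.06). The 4 tested hippocampal genes had medians of -0.18, 0.24 and 0.59, another order of pairs (*Fibcd1* 0.26, *C1ql2* 0.36, *Spink8* 0.28, *Prox1* 0.08). In these 6 lists limma called 0 genes, 0 had an unadjusted p under 0.05, and 3 had with the block, beside 503 of all 12863 genes tested.

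**Figure D5:**
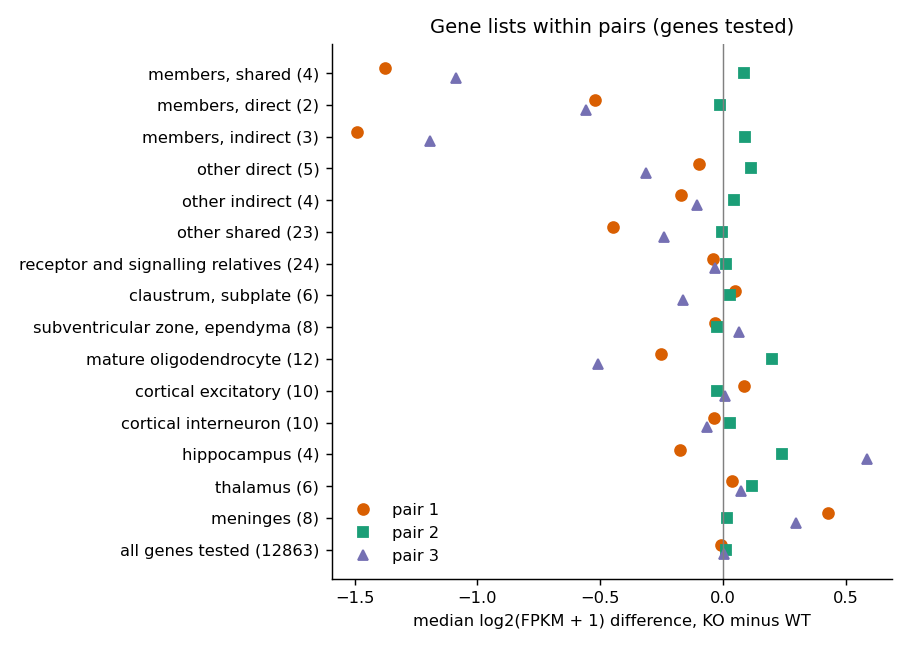
Median difference between KO and WT on log2(FPKM + 1) (horizontal axis) over the tested genes of each list (number in brackets) in pairs 1, 2 and 3. The members of both classes lie at -0.52 or below in pairs 1 and 3 and within 0.1 of 0 in pair 2. The meningeal list lies to the right in pairs 1 and 3 and the oligodendrocyte list to the left.

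The genes with the profile most like that of the members were sought outside the striatal lists. Likeness was the mean absolute difference, over the 6 libraries, between a gene's centred log2(FPKM + 1) and the median centred profile of the members. Over all genes tested its median was 0.55, and the lowest 1% lay at 0.38 or below. Of the 12 nearest genes 7 were rows of at most 128 bp (*Mir410*, *Mir6390*, *Mir7036*, *Mir7653*, *Mir212*, *Snord22* and *DQ267100*) with 0 to 18 reads per library, too few to describe a profile. The other 5 were *Cd4*, *Crabp1*, *1700003D09Rik*, *Nexn* and *Prima1*, at distances of 0.11, 0.18, 0.20, 0.25 and 0.28. *Cd4* measured 0.357, 1.95 and 0.264 FPKM in KO replicates 1, 2 and 3, against 1.605, 1.74 and 1.16 FPKM in WT. *1700003D09Rik* measured 3.96, 16.3 and 4.43 FPKM in KO, against 14.3, 15.6 and 9.29 FPKM in WT. *Crabp1*, a retinoic acid binding protein gene, held 33, 51 and 21 reads in KO, against 116, 54 and 65 reads in WT. Among the members themselves the distance was 0.09 for *Rgs9*, 0.10 for *Ppp1r1b* and *Drd2*, 0.24 for *Drd1*, 0.34 for *Scn4b* and 0.40 for *Tac1*. *Tac1* was thus outside the nearest 1% of genes.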

How the data were processed

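The authors deposited 1 table of FPKM values with 24453 gene rows on mm10. Per the file headers, HOMER counted reads over exons with the transcripts of a gene condensed to 1 row; its command names 12 libraries and no strand option, so overlapping and antisense genes are uncertain. The 6 libraries with columns were used and the others are not analysed here. Per the submitters' processing notes, STAR 2.4.0k and HOMER 4.8.3 were used. The Length and Copies columns of the deposited gene model are other values, and length served to recover reads.

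The members and lists were chosen with earlier results of these data known. FPKM rises in steps of 1 read, and with the best total per library 100% of 2520 to 2706 values (1500 bp or less, under 200 reads) were whole within 0.1 read. Genes averaging at least 1 FPKM (12863) were fitted with limma 3.58.1 (R 4.3.3) on log2(FPKM + 1), trend in the empirical Bayes step, 2-sided, Benjamini-Hochberg adjusted at 0.05, and the fit was tested on simulated data. The members were in this fit, and their p-values are not printed. Of 148 list genes all matched, *Ccn2* under its older symbol *Ctgf*. Named genes are the members, *Chrdl1*, the 4 genes of each other list with the smallest unadjusted p (8 for the shared striatal list) and the 12 most alike; others (*Arpp21*, *Isl1*, *Adora1*, *Pvalb*, *Slc17a7*, *Chat*, *Lhx8*, *Six3*, *Cyp26b1*, *Ipw*) were picked after their values were seen. Some genes are not reported here. Deviations from the group means correlated at 0.43, 0.71 and 0.67 for libraries with the same number, against -0.61 to -0.06 otherwise, so the numbers pair the libraries; the labels do not say what they stand for. Intervals and limits for 0 reads (3 counts) cover counting error only, since reads are not independent molecules. Alternatives were another pseudocount, filters, rescaling by trimmed means, the block, voom on recovered reads and left-out libraries. Intervals came from scipy 1.17.1 under Python 3.11.15.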

Additional observations from a re-analysis of the deposited data

How the results depend on the processing

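The median over the members kept its direction under every alternative run, from -1.10 to -0.37 with 1 library or pair left out (-1.10 without KO replicate 2, -0.37 without KO replicate 3), and the replicate block left it at -0.69 and called 0 members. Left-out libraries gave 0 to 3 called members (3 without KO replicate 2), 0 to 4 called genes in all, and a KO minus WT difference in direct minus indirect genes of 0.24 to 0.78. Nothing is read from the 3 calls, since the members were high in the KO library left out. The pair medians moved by more than the spread of WT libraries with a pseudocount of 0.1 (-1.52 in pair 1) and with voom on recovered reads (-1.52 in pair 1, -1.22 in pair 3). A pseudocount of 1 FPKM makes the log2 differences of low genes smaller. Without one, the log2 ratio of FPKM was -1.52 for *Penk*, the median member in pair 1, and -1.22 for *Rgs9*, that in pair 3. Over all genes, 2 were called with a pseudocount of 0.1, 6 with no filter and 0 with a mean of 5 FPKM or more, which drops *Chrdl1* and *Drd2*, so that the direct and indirect genes could not be compared there. The planned edgeR test on recovered reads was not run, and voom was the model run on those reads. Depth limits *Drd2*, *Isl1* and the cholinergic genes.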

Other observations

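Beyond the lists, 29 of the 12863 genes tested were lower in KO by 0.5 or more on log2(FPKM + 1) in both pair 1 and pair 3. Of these, 7 were members, 6 belonged to the other medium spiny neuron lists (*Rxrg*, *Six3* and *Slc35d3* among them), and 16 were on no list, *Chrdl1* among them. The 16 included *Mir7036*, *Mir410*, *Mir212*, *Snord22* and *DQ267100*, short rows with too few reads to describe a profile. Further microRNA and small nucleolar RNA rows among them were *Mir1198*, *Mir1895*, *Mir6973b*, *Snord53* and *Snord42a*. *Six3*, a homeobox factor gene, held 28, 159 and 35 reads in KO replicates 1, 2 and 3, against 162, 128 and 192 reads in WT. *Cyp26b1*, which encodes a retinoic acid-degrading enzyme and was picked after its values were seen, was at -0.57, 0.01 and -0.60 in pairs 1, 2 and 3. The noncoding RNA gene *Ipw*, near the filter with a mean of 1.155 FPKM, was at -0.54, -0.33 and -0.73, while the lowest member in pair 2 was at -0.04.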
